A study of Homo sapiens with 4 samples.

Results

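Accessible chromatin around NAMPT and 9 further genes of NAD metabolism was examined in untreated and TWEAK-treated SKBR3 cells. The genes were NAMPT, NAPRT, NMNAT1, NMNAT2, NMNAT3, NADSYN1, QPRT, NMRK1, NNMT and SIRT1. A site was a merged group of ATAC-seq peaks of the 4 libraries that overlapped by at least 1 bp. Every site within 100 kb of any annotated transcription start of these 10 genes (GENCODE release 44, hg38) was taken, which gave 518 of 307691 sites.

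NAD is the redox cofactor of central metabolism and is also consumed as a substrate by sirtuins and poly(ADP-ribose) polymerases, so cells must keep making it. NAMPT catalyses the rate-limiting step of the salvage route, in which nicotinamide released by these enzymes is turned into nicotinamide mononucleotide, while NAPRT, QPRT and NMRK1 act in the routes from nicotinic acid, from tryptophan and from nicotinamide riboside. The NMNAT enzymes add the adenylyl group that all routes need, NADSYN1 amidates the product of the acid routes, NNMT methylates nicotinamide and so withdraws it from salvage, and SIRT1 is an NAD-dependent deacetylase that spends NAD.

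ATAC-seq uses the Tn5 transposase to insert sequencing adaptors into open DNA. SKBR3 is an established, ERBB2-amplified line of breast cancer cells, and TWEAK is a cytokine of the TNF superfamily that signals through the receptor Fn14. All cells were seeded 24 h before 8 h of starvation. The TWEAK group (2 libraries) then received TWEAK at 10 ng/ml for 48 h, replenished after 24 h, and the untreated group (2 libraries) did not. All 4 libraries came from 1 cell line, so the data describe that line. In such bulk cultures a larger share of open cells and a more open site in each cell cannot be told apart.

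The 4 lists held between 195388 and 228734 peaks, each 501 bp wide. Each deposited value equalled a Poisson tail for a whole-number pileup over a background of 1.85 to 3.59 reads that was constant within a list, so depth differed between lists. Levels are therefore given on 2 scales. The rank percentile is a peak's place in its own list, with 100 the strongest. The enrichment is the recovered pileup divided by the background of the list. Neither scale, nor the number of sites around a gene, was corrected for local copy number. Across all sites present in every list, the median of the per-site differences in rank percentile, TWEAK minus untreated, was -1.75. Enrichment tended to be higher with TWEAK, so small differences in either direction depended on the scale. Promoters of 8 of 8 epithelial marker genes carried a peak in all 4 lists. Among 6 markers of other cell types, CD3E had no promoter peak, PTPRC had one in 1 list, PECAM1 in 2 lists, and COL1A1, COL1A2 and DCN had one in all 4 lists.

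Of the 518 sites, 218 (42.1%) had a peak in all 4 lists, against 42.8% of all sites, and 164 (31.7%) had a peak in 1 list, against 29.2% of all sites. Sites with a peak in both TWEAK lists but in no untreated list were termed gained, and those with the reverse pattern lost. There were 19 gained sites (3.67%) beside 3.6% of all sites, and 15 lost sites (2.90%) beside 3.79% of all sites. A further 39 sites (7.53%) had 1 list of each treatment, beside 7.89% of all sites. These shares were near those of all sites. More sites were gained than lost at 6 genes, which were NMNAT1, NADSYN1, QPRT, NMRK1, NNMT and SIRT1. NAPRT and NMNAT3 had more lost sites, and NAMPT and NMNAT2 had equal numbers. Over all protein-coding genes the medians were 1 gained and 1 lost site. Gained sites above the 50th percentile in both TWEAK lists, called strong, numbered 6 (1.16% of member sites, beside 0.591% of all sites). No lost site of these genes was strong, beside 0.21% of all sites.

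**Figure D1:**
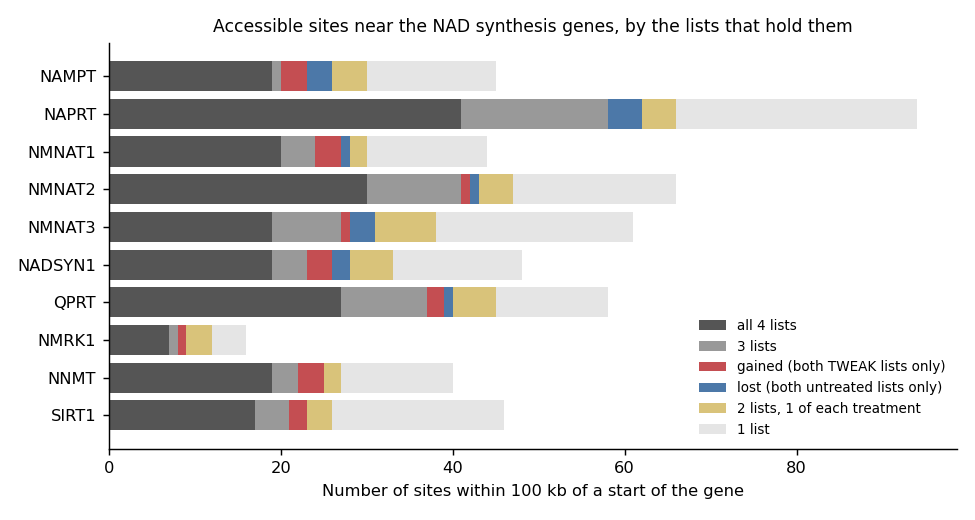
Number of sites within 100 kb of a start of each gene (horizontal axis), split by the lists that held a peak. NAPRT had the most sites (94) and NMRK1 the fewest (16), and gained and lost sites made up a small share at every gene.

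The number of sites with a peak was 329 and 373 in the untreated libraries and 355 and 314 in the TWEAK libraries. The groups overlapped, and the mean differed by -16.5 sites (exact permutation test, two-sided, p = 0.667, where 0.333 is the smallest p that 2 against 2 libraries allow). The balance of gained and lost sites rested on single libraries. Without untreated replicate 1 there were 31 gained and 82 lost sites, without untreated replicate 2 there were 39 and 52, without TWEAK replicate 1 there were 40 and 37, and without TWEAK replicate 2 there were 61 and 25. The gained and lost shares of all sites were 6.54% and 15.9% without untreated replicate 1 (6.39% and 16.9% of member sites), 7.63% and 11.5% without untreated replicate 2 (8.57% and 11.4%), 9.09% and 9.29% without TWEAK replicate 1 (8.32% and 7.69%), and 11.6% and 6.56% without TWEAK replicate 2 (12.1% and 4.97%). Windows of 100 kb also hold other genes, and the nearest protein-coding start was that of the member itself at 183 of the 518 sites, at 8 of the 19 gained sites and at 5 of the 15 lost sites.

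NAMPT (ENSG00000105835.13) is transcribed from the minus strand at chr7:106248298-106285966, with its canonical start at 106284983. It had the best-ranked promoter of the 10 genes. The promoter site, at chr7:106285056-106285581, reached percentiles of 99.73 and 99.69 in the untreated lists and 99.71 and 99.65 in the TWEAK lists, and its enrichment was 164, 184, 179 and 190 in the same order. The groups overlapped on both scales. The mean percentile differed by -0.0298 (exact permutation test, two-sided, p = 0.667), and among 15165 protein-coding genes with a promoter peak in all lists 98.2% had a lower mean percentile. The genes whose promoter ranks lay nearest to these 4 values, among 15164 compared, were EIF3H and UTP23, which share 1 promoter site, with a summed absolute difference of 0.0665 percentile points, and BBS9, with 0.0694.

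Within that promoter site an annotated NAMPT exon upstream of the canonical start holds a match to the NF-kB consensus at chr7:106285364-106285373. A stretch of 30 bases on the plus strand (hg38, as are all sequences and positions here) is shown because this is the most accessible element of the locus in every library, with the match in capitals.
NAMPT promoter, chr7:106285354-106285383: gggcctggagGGGGCGTTCCcagctttgcc
The match says only that these letters are present. Of all sites, 6.19% held an NF-kB match in the 200 bases around their best-ranked peak's centre, and of the 45 NAMPT sites 4 did.

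Next to the promoter site, accessibility around the first exon was placed differently in the 2 groups. In the untreated lists the only peak there was centred 769 and 792 bp downstream of the canonical start, at percentiles of 69.4 and 74.8 and enrichments of 13.9 and 18.8. In the TWEAK lists a stronger peak was centred 349 and 366 bp downstream, at percentiles of 87.9 and 85.97 and enrichments of 39.9 and 41.7. TWEAK replicate 2 also had a peak at the untreated position, 869 bp downstream, at a percentile of 68.4 and an enrichment of 19.5, while TWEAK replicate 1 had none. The stronger TWEAK peaks overlapped the untreated peaks by less than 100 bp. Sites shared by all 4 lists were compared with limma, which fitted the normal score of each rank over all shared sites with a spread that varied with rank. No member site passed when that trend of the spread was left out (lowest adjusted p 0.0849), so the limma calls rest on it. With the 1 bp rule the first-exon peaks formed 1 site that ranked higher with TWEAK (normal-score difference 0.536, SE 0.109, limma adjusted p = 0.00111), and with a minimum overlap of 200 bp they separated, so that the TWEAK peak at chr7:106284367-106284884 became a gained site of NAMPT, making 4 in all. Neither value compares the strongest peaks over the same 501 bp in both groups.

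In all, 45 sites lay around NAMPT, of which 19 were in all 4 lists, 3 were gained and 3 were lost. The 3 gained sites (6.67% of NAMPT sites) and the 3 lost sites (6.67%) compare with medians of 1 gained and 1 lost site over 19962 protein-coding genes, of which 16.6% had 3 or more gained and 23.4% had 3 or more lost sites. Both strong gained sites were intergenic and far from the start. The first, chr7:106216420-106216941, lay 68292 bp downstream of the canonical start and had percentiles of 71.1 and 65.1 and enrichments of 17.5 and 17.3 in the TWEAK lists, with no untreated peak. The second, chr7:106354803-106355313, lay 70070 bp upstream and had percentiles of 67.5 and 59.8 and enrichments of 15.2 and 14.6, with 9923 bp to the nearest peak of an untreated list. The windows of 200 bases around their centres are shown, plus strand, because they are the sites of this locus with no untreated peak and a rank above the middle of both TWEAK lists. Capitals mark an AP-1 match (TGACTCA or its reverse complement). The second window held no match to the AP-1, NF-kB, CRE or E-box motifs. It held a match to the SP/KLF motif (GGGCGG), which was left in lower case.
NAMPT downstream gained, chr7:106216591-106216790: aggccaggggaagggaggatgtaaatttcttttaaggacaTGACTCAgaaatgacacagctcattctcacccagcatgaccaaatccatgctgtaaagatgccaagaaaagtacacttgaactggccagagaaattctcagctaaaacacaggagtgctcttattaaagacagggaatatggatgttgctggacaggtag
NAMPT upstream gained, chr7:106354953-106355152: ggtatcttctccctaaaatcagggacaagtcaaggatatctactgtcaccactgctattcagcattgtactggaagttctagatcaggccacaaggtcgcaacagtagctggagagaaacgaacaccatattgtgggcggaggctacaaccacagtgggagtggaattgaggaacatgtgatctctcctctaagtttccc
The AP-1 match in the downstream window occupies chr7:106216631-106216637.

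The downstream gained site had a neighbour that moved the other way. At chr7:106217175-106217689, only 233 bp from it, all 4 libraries had a peak, with percentiles of 94.0 and 92.7 in untreated cells and 87.6 and 82.4 with TWEAK, and enrichments of 56.0, 55.5, 39.1 and 34.7. Both TWEAK values lay below both untreated values on either scale. The rank fell by 0.461 on the normal-score scale (SE 0.0936, limma adjusted p = 0.00107), and its pileup, relative to the median pileup of the shared sites in each list, was 0.556-fold. A second shared site in the same flank, chr7:106231776-106232333, had percentiles of 67.8 and 72.0 in untreated cells and 48.6 and 23.03 with TWEAK. Its rank fell by 0.909 (SE 0.207, adjusted p = 0.00351). Without untreated replicate 2 the adjusted p was 0.0594, and without TWEAK replicate 2 it was 0.0508.

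Upstream of NAMPT, beyond the second gained site, 2 shared sites were higher with TWEAK. The site at chr7:106365219-106365740, 80486 bp upstream, had percentiles of 77.8 and 75.8 in untreated cells and 91.3 and 91.2 with TWEAK, and its enrichment went from 20.1 and 19.7 to 50.5 and 57.4. The replicates of each group lay close together and the groups were far apart. Its rank rose by 0.625 (SE 0.0975, adjusted p = 2.87e-05) and its pileup was 2.28-fold, and in every alternative that kept the fitted trend its adjusted p was at most 0.000257. The site at chr7:106378061-106378583 had percentiles of 30.3 and 60.6 in untreated cells and 68.8 and 69.2 with TWEAK (adjusted p = 0.0401). Leaving out untreated replicate 1 raised the adjusted p to 0.575, and leaving out TWEAK replicate 1 or 2 raised it to 0.0523 or 0.121. The window of the first of these sites is shown, plus strand, because it had the lowest limma p among the distal NAMPT sites. It held no match to the AP-1, NF-kB, CRE or E-box motifs and so has no capitals.
NAMPT far upstream shared, chr7:106365369-106365568: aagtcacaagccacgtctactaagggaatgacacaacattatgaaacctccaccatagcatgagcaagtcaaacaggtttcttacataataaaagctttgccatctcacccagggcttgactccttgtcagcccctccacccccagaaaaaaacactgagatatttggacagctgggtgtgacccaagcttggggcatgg

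None of the other shared NAMPT sites was called by limma on ranks. On the centred pileup 1 more was called lower, from 106179759 (adjusted p = 0.0171, pileup 0.766-fold). The third gained site, 61743 bp upstream, was weak, at percentiles of 11.2 and 17.9. The 3 lost sites lay 85798 and 83580 bp downstream and 9563 bp upstream, with percentiles from 2.1 to 37.4 in the untreated lists. The strongest distal site, chr7:106239305 onwards and 45426 bp downstream, had percentiles of 97.9 and 98.5 in untreated cells and 98.3 and 98.6 with TWEAK (adjusted p = 0.694). Of the 19 shared NAMPT sites, ranks did not overlap between groups at 3 with TWEAK higher and at 10 with TWEAK lower, beside 15.8% and 35.4% of all shared sites. By enrichment the balance turned, with 4 higher and 2 lower, beside 34.8% and 12.2%. By limma, 3 were called higher and 2 lower, beside 3.87% and 4.75% of all shared sites.

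**Figure D2:**
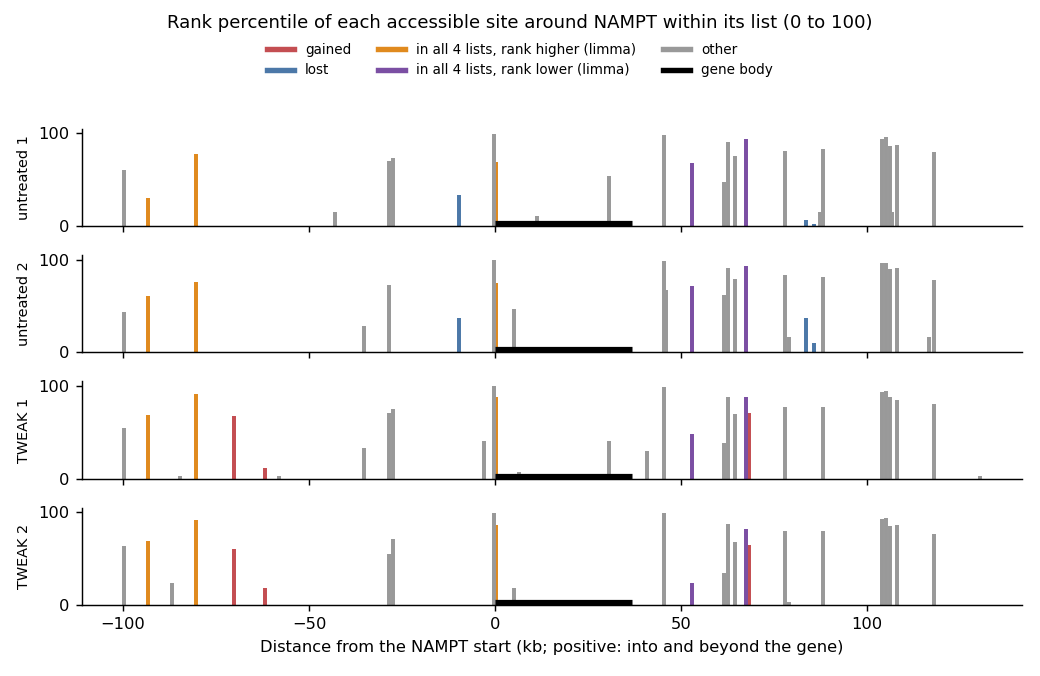
Rank percentile within its list (vertical axis, 0 to 100) of each site around NAMPT, by distance from the canonical start in kb (horizontal axis, positive into and beyond the gene), with 1 panel per library. The strong gained sites on either side of the gene appear in the TWEAK panels only, the promoter bar is near 100 in every panel, and the orange bar beside it joins the differently placed peaks of the first exon.

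NAPRT and QPRT are the phosphoribosyltransferases of the acid routes, NAPRT using nicotinic acid and QPRT quinolinic acid. NAPRT (ENSG00000147813.16, minus strand, chr8:143574785-143578649) had the densest surroundings of the 10 genes, with 46.2 sites per 100 kb against a median of 14.3 over protein-coding genes. Its promoter site had percentiles of 97.6 and 98.0 in untreated cells and 97.5 and 96.8 with TWEAK, and its enrichment was 84.2 and 102 against 92.3 and 92.6. The ranks did not overlap, the enrichments did, and the mean percentile differed by -0.646 (exact permutation test, two-sided, p = 0.333, which no 2 against 2 design can undercut). No site around NAPRT was gained (beside 3.6% of all sites) and 4 were lost (4.26%, beside 3.79%). All 4 lost sites were weak, with TWEAK peaks 337 to 734 bp away, and 6 of the 94 sites had the start of NAPRT as their nearest protein-coding start. A shared site in an intron of ZC3H3, from 143499539, fell from percentiles of 90.1 and 90.8 to 86.1 and 82.7 (adjusted p = 0.0430). That call was lost without untreated replicate 1 (0.119), untreated replicate 2 (0.219) or TWEAK replicate 2 (0.292).

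QPRT (ENSG00000103485.19, plus strand, chr16:29663279-29698699) had promoter percentiles of 93.4 and 95.3 in untreated cells and 94.4 and 95.2 with TWEAK. The groups overlapped. Around it 2 weak sites were gained and 1 was lost among 58 (3.45% and 1.72%, beside 3.6% and 3.79% of all sites). None of its 27 shared sites was called in either direction by limma. Of these 27, ranks were lower with TWEAK without overlap at 12 (44.4%, beside 35.4% of all shared sites) and higher at 4 (14.8%, beside 15.8%). By enrichment 5 were lower (18.5%, beside 12.2%) and 7 higher (25.9%, beside 34.8%).

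The 3 NMNAT genes encode the adenylyl-transferring enzymes of the nucleus (NMNAT1, ENSG00000173614.14, plus strand, chr1:9943428-9985501), of the Golgi and cytosol (NMNAT2, ENSG00000157064.11, minus strand, chr1:183248237-183418380) and of mitochondria (NMNAT3, ENSG00000163864.18, minus strand, chr3:139560180-139678017). The best NMNAT1 promoter site, which also covers a start of LZIC, had percentiles of 92.4 and 91.5 in untreated cells and 92.5 and 91.1 with TWEAK. For NMNAT2 the best-ranked start was an internal one, with percentiles of 80.1 and 84.4 against 80.3 and 81.3. Groups overlapped at both genes. NMNAT3 was the only gene of the 10 whose promoter ranked higher with TWEAK without overlap, at 97.71 and 97.55 against 98.07 and 97.82, a mean difference of 0.320 percentile points (exact permutation test, two-sided, p = 0.333). By limma none of the 10 best promoter sites was called on ranks (lowest adjusted p 0.107, at NMRK1), and on the deposited value relative to its list's median the NMNAT3 difference turned negative (-4.99).

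Gained and lost sites at the NMNAT genes were mostly weak. NMNAT1 had 3 gained sites and 1 lost site among 44 (6.82% and 2.27%), and NMNAT2 had 1 of each among 66 (1.52%). NMNAT3 had 1 gained and 3 lost among 61 (1.64% and 4.92%). Of all sites, 3.6% were gained and 3.79% lost. The strong gained site was at chr1:10018439-10018956, 75231 bp downstream of the NMNAT1 start and nearest to the start of UBE4B, with percentiles of 75.8 and 66.0 and the nearest untreated peak 2315 bp away. Another gained site of the same window covered a start of UBE4B, at percentiles of 63.0 and 47.4, with an untreated peak 397 bp away.

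Of the 30 shared sites around NMNAT2, limma called 3 higher and 1 lower, beside 3.87% and 4.75% of all shared sites. One of those called higher and the lower one lay within the gene. The others called higher lay outside the gene and are not reported here, so the sites below do not show the balance. An intronic site at chr1:183318400-183318938 rose from percentiles of 89.9 and 90.8 to 96.1 and 95.6 (adjusted p = 0.000593, pileup 1.51-fold). Another intronic site, from 183349227, fell from 97.5 and 96.8 to 92.2 and 88.7 (adjusted p = 8.09e-06, pileup 0.514-fold). At each of them the groups did not overlap.

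At NMNAT3, the intergenic site from 139558279 had percentiles of 85.5 and 87.9 in untreated cells and 72.7 and 76.0 with TWEAK, and its rank fell by 0.459 (SE 0.107, adjusted p = 0.00440). Without untreated replicate 2 its adjusted p was 0.0803. An intronic site from 139601108 had 57.5 and 56.4 against 74.1 and 73.8 (adjusted p = 0.0347), but its call was lost when any 1 of the 4 libraries was left out (highest adjusted p 0.130).

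NADSYN1, the glutamine-dependent NAD synthetase (ENSG00000172890.13), lies on the plus strand at chr11:71453109-71524107. Its promoter site, shared with DHCR7, had percentiles of 96.6 and 96.5 in untreated cells and 96.2 and 95.0 with TWEAK. The ranks did not overlap, with TWEAK lower, while the mean enrichment was 77.2 in both groups. The strongest gained site of the 10 genes lay in a NADSYN1 intron at chr11:71489240-71489745, 36292 bp into the gene. It had percentiles of 82.5 and 85.0 and enrichments of 29.2 and 39.5 in the TWEAK lists. No untreated peak overlapped it, and the nearest one, 147 bp away, was a weak peak of untreated replicate 2 at a percentile of 33.5. The window is shown, plus strand, because it was the only gained site of the set with both an NF-kB and an AP-1 match, which are in capitals in that order.
NADSYN1 intron gained, chr11:71489395-71489594: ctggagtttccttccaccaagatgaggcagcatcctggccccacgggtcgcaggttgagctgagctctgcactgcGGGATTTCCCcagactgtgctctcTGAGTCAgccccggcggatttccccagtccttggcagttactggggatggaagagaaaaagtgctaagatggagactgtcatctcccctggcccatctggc
A shared site in the same intron region, chr11:71487947 onwards, with an AP-1 match, had percentiles of 82.4 and 83.8 in untreated cells and 90.5 and 89.6 with TWEAK (adjusted p = 0.0250). Both TWEAK values were higher, and the adjusted p was between 0.0534 and 0.144 when 1 library was left out. The other 2 gained and both lost sites of NADSYN1 were weak. Its 3 gained and 2 lost sites made up 6.25% and 4.17% of its sites, beside 3.6% and 3.79% of all sites.

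NMRK1 phosphorylates nicotinamide riboside. The gene (ENSG00000106733.21, minus strand, chr9:75060573-75088217) had the sparsest surroundings, at 7.24 sites per 100 kb. Sites with a peak numbered 10 and 10 in the untreated libraries and 11 and 12 in the TWEAK libraries (exact permutation test, two-sided, p = 0.333). Its promoter site, shared with OSTF1, had percentiles of 97.1 and 97.5 in untreated cells and 96.4 and 94.9 with TWEAK, the largest promoter difference of the set at -1.64 percentile points. On ranks limma gave an adjusted p of 0.107, and on the pileup centred on the median the value was 0.764-fold with an adjusted p of 0.0118. Enrichments of 78.3, 93.5, 79.0 and 76.3 overlapped, so the call depended on the scale. Another start of NMRK1 had 1 weak gained site, of percentiles 29.2 and 17.9, 97 bp from an untreated peak.

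NNMT (ENSG00000166741.8) lies on the plus strand at chr11:114257787-114313536. Its best promoter site was the lowest-ranked of the 10, with percentiles of 74.9 and 78.5 in untreated cells and 75.0 and 76.0 with TWEAK, and 19.4% of protein-coding genes with such a promoter ranked lower. The groups overlapped. Among 40 sites, 3 were gained and none was lost (7.5% gained, beside 3.6% of all sites), and no shared site was called by limma. The strong one, chr11:114379362-114379874, lay 83213 bp downstream of the canonical start, had percentiles of 61.2 and 54.5, and was 12862 bp from the nearest untreated peak. It is shown, plus strand, because it is the most isolated strong gained site of the set, with an NF-kB match in capitals.
NNMT flank gained, chr11:114379512-114379711: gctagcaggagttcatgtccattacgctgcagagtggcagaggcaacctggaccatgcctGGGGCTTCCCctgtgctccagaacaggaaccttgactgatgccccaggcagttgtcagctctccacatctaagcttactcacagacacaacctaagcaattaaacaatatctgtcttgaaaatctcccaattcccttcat
The gained site at the NNMT canonical start was weak, at percentiles of 32.5 and 2.5.

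SIRT1 (ENSG00000096717.12, plus strand, chr10:67884656-67918390) had the promoter second to that of NAMPT. Its percentiles were 98.9 and 99.1 in untreated cells and 98.6 and 98.8 with TWEAK, and its enrichments were 109, 137, 112 and 130. The ranks did not overlap, the enrichments did, and the mean percentile differed by -0.334 (exact permutation test, two-sided, p = 0.333). The largest called rise near SIRT1 was in an intron of DNAJC12, a co-chaperone gene, at chr10:67819736-67820254. That site went from percentiles of 82.9 and 83.8 to 96.9 and 97.6 and from enrichments of 26.2 and 29.97 to 84.3 and 104 (normal-score difference 0.956, SE 0.0852, adjusted p = 3.36e-10, pileup 2.81-fold). It is shown, plus strand, with the SIRT1 promoter window. Among the sites around SIRT1 these had the lowest limma p and the highest accessibility, in that order. Capitals mark an NF-kB match in the first and SP/KLF (GGGCGG) and E-box (CACGTG) matches in the second.
DNAJC12 intron, risen, chr10:67819896-67820095: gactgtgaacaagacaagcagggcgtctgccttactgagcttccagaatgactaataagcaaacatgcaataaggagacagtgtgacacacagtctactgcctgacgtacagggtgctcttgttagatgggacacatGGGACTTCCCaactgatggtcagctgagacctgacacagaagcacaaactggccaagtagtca
SIRT1 promoter, chr10:67884456-67884655: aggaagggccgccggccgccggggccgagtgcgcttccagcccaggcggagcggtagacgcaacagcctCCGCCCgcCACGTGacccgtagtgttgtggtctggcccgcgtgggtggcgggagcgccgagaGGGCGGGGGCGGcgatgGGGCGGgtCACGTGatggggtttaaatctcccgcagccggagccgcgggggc
The strong gained site of this window, chr10:67965970-67966481, overlapped an exon of HERC4 and had percentiles of 67.5 and 69.2. Around SIRT1, 2 of 46 sites were gained (4.35%, beside 3.6% of all sites) and none was lost (beside 3.79%). A neighbouring site in the DNAJC12 intron, from 67818226, went from percentiles of 95.4 and 96.1 to 97.6 and 98.3 (adjusted p = 0.00851, and 0.0515 on the centred pileup, 0.0653 without untreated replicate 1 and 0.156 without TWEAK replicate 2). A site in a HERC4 intron, from 67978053, went from 56.4 and 57.9 to 32.5 and 12.3 (adjusted p = 0.0187), and its adjusted p was between 0.124 and 0.163 without either untreated library or TWEAK replicate 2.

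Compared across the 10 genes, promoters ranked in the order NAMPT, SIRT1, NMNAT3, NAPRT, NMRK1, NADSYN1, QPRT, NMNAT1, NMNAT2 and NNMT by mean percentile over the 4 libraries. In that order NMNAT3 and NAPRT, NAPRT and NMRK1, NMRK1 and NADSYN1, and NADSYN1 and QPRT overlapped in their values over the libraries, and no other neighbours did. Ranks were lower with TWEAK without overlap at NAPRT, NADSYN1, NMRK1 and SIRT1, beside 35.4% of all shared sites. They were higher at NMNAT3, beside 15.8%. On enrichment the 4 with lower ranks overlapped. NMNAT1 and NMNAT3 were higher with TWEAK without overlap on enrichment, beside 34.8% of all shared sites.

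**Figure D3:**
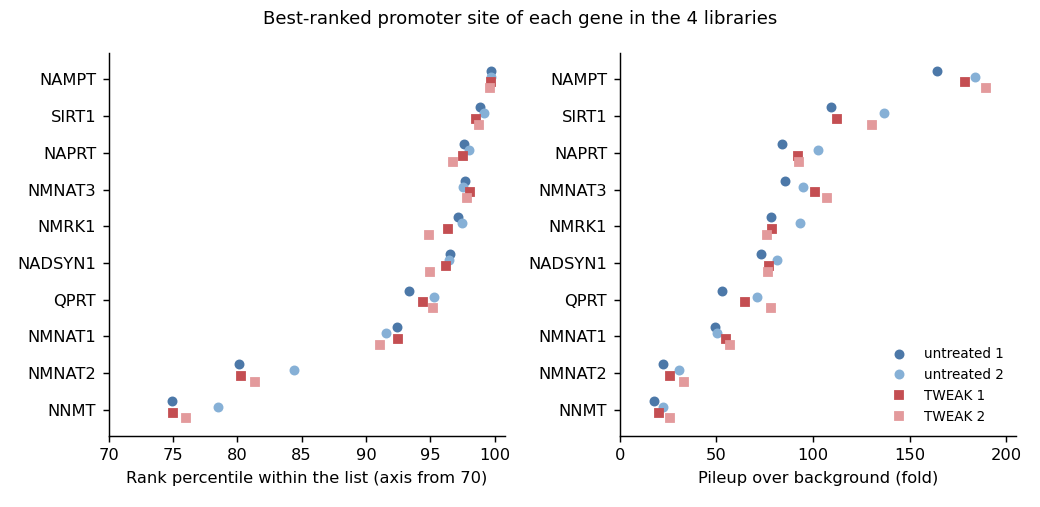
Rank percentile (left, axis from 70) and enrichment over background (right, from 0) of the best-ranked promoter site of each gene, with circles for the 2 untreated and squares for the 2 TWEAK libraries. NAMPT lies near 100 and between 164 and 190-fold in every library, and groups sit close together at each gene.

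Over all 218 shared sites of the 10 genes, 45 ranked higher with TWEAK without overlap (20.6%, beside 15.8% of all shared sites) and 77 ranked lower (35.3%, beside 35.4%). By enrichment the split turned, with 81 higher (37.2%, beside 34.8%) and 21 lower (9.63%, beside 12.2%). By limma on ranks 10 were called higher (4.59%, beside 3.87%) and 6 lower (2.75%, beside 4.75%). Of these 16, 10 lay nearest to the start of the member itself, beside 35.3% of all 518 member sites. On the pileup centred on the median 16 were higher (7.34%, beside 5.82%) and 18 lower (8.26%, beside 8.87%), and with ranks recomputed among shared sites 17 were higher (7.8%, beside 6.06%) and 6 lower (2.75%, beside 4.53%). Among all shared sites called, 44.9% were higher on ranks, 39.6% on the centred pileup and 57.2% on the recomputed ranks. Without the trend of the spread, 39 of 218 had an unadjusted p under 0.05, beside 23158 of the 131751 shared sites, and none an adjusted one.

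**Figure D4:**
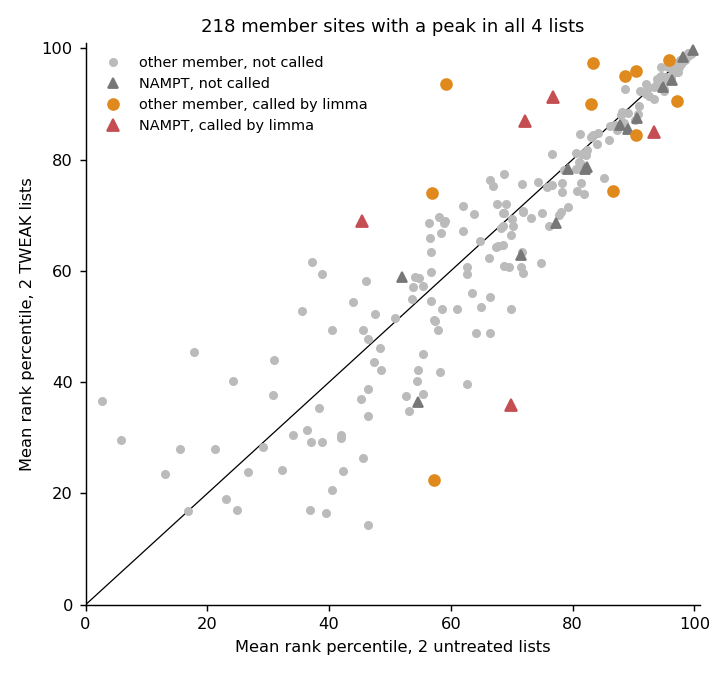
Mean rank percentile in the 2 untreated lists (horizontal) against the 2 TWEAK lists (vertical) of the 218 shared sites, with the line of equality. The NAMPT sites called by limma (red triangles) lie on both sides of the line.

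A list of 30 further genes of NAD metabolism held 1289 sites, counted per gene, with 33 gained (2.56%) and 47 lost (3.65%), beside 3.6% and 3.79% of all sites. More sites were gained than lost at 8 of them, fewer at 11, and numbers were equal at 11, of which 5 had neither. The de novo group had 9 gained and 9 lost sites of 298, the group of salvage, transport and phosphorylation 10 and 8 of 297, and the NAD consumers 14 and 30 of 694. Among the consumers, SIRT7, a nucleolar sirtuin, had 3 gained and 8 lost of 150 sites, and SARM1, an NAD hydrolase of axons, had 2 and 6 of 120. AFMID, the formamidase of the kynurenine route, had 3 and 3 of 122, and NMRK2, a second riboside kinase, had 3 and 2 of 49. By limma, 18 of 582 shared sites of the list were called higher (3.09%, beside 3.87% of all shared sites) and 34 lower (5.84%, beside 4.75%).

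**Figure D5:**
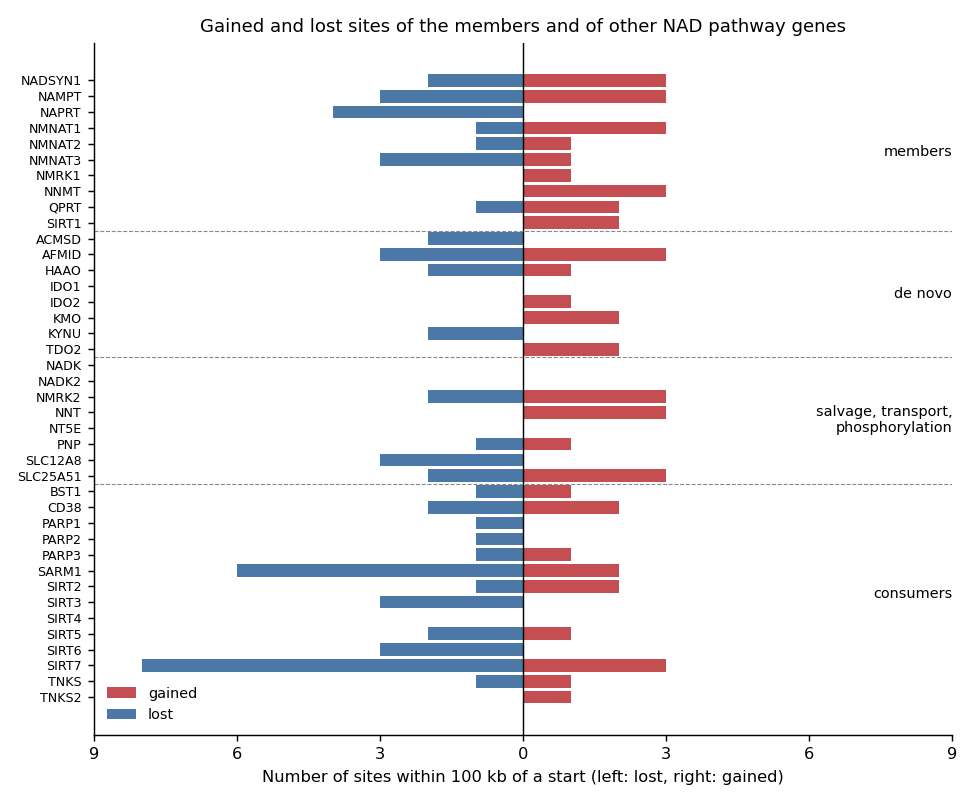
Number of gained sites (right, red) and lost sites (left, blue) within 100 kb of each of the 10 members and the 30 further genes of NAD metabolism, grouped by role. The longest bars on the left are those of SIRT7 (8 lost of 150 sites) and SARM1 (6 lost of 120), which hold many sites, and no gene has more than 3 gained sites.

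Motifs were searched on either strand in the central 200 bases of a site's best-ranked peak. AP-1 (TGACTCA) was found in 40 of the 518 member sites (7.72%) beside 8.99% of all sites, and the NF-kB consensus in 41 (7.92%) beside 6.19%. In the 19 gained member sites, 4 held AP-1 and 4 held NF-kB, beside 16.6% and 20.04% of all gained sites, and in the 15 lost sites 0 and 1 did, beside 4.87% and 4.27% of all lost sites. TFAP2 (GCCNNNGGC) was in 15.8% of member sites and 12.1% of all sites, and SP/KLF in 13.7% and 10.4%. TFAP2 matches were not marked in the printed windows. The other motifs were rarer. E-box was in 3.86% of member sites (beside 3.48% of all sites) and CRE (TGACGTCA) in 0.386% (beside 0.312%). NRF1 (GCATGCGC) was in 0.965% (beside 0.539%) and the small MAF motif (TGACTCAGC, which contains AP-1) in 0.965% (beside 0.921%).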

How the data were processed

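ATAC-seq was measured in 2 untreated and 2 TWEAK-treated SKBR3 libraries, grouped by their titles. The authors trimmed reads with Trimmomatic, mapped them to hg38 with Bowtie2 and dropped duplicates by Picard, and their MACS2 peaks were deposited per library. Versions and settings are not given in the sources used here, nor is a shift for the transposase. The deposited value of each 501 bp peak was read as an uncorrected -log10 p-value of the authors' caller, since it equalled a Poisson tail for a whole-number pileup to within 0.00231 of a step. The pileup counts P(X ≥ k), and the other convention would shift it by 1. Other sequences than chromosomes 1 to 22 and X were left out.

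Differential tests on reads, as the study ran, were not possible with peak lists. Shared sites were fitted with limma 3.58.1 (normal scores of ranks, trended spread, Benjamini-Hochberg adjustment over 131751 sites, threshold 0.05). Tested on simulated data of the same 131751 sites, the fit recovered 124 of 200 sites shifted by 1 normal-score unit, with 9 false calls. The simulated noise was independent between libraries and its spread depended on mean rank alone, as the trended fit assumes. The 9 false calls therefore cannot measure false calls in the real data. Most called member sites differed by less than 1 normal-score unit. Counts and promoter ranks were compared by exact permutation, two-sided. Replicates are described as biological in the study's methods. Named sites were the best promoter site of each member, all gained and lost NAMPT sites, strong ones elsewhere, shared sites with the 10 lowest p-values (except some that are not reported here), and others chosen after their values were seen, as were the printed windows outside NAMPT. Members, gene lists and motifs were chosen with earlier results of these data known. Python 3.11.15 and R 4.3.3 were used.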

Additional observations from a re-analysis of the deposited data

How the results depend on the processing

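With 2 libraries per group no permutation test can pass 0.05, and the depth of a list limits which weak peaks are present at all. The difference in numbers of member sites per library turned from -16.5 to 10.5 with deposited values of at least 5, to 27 with pileups of at least 5 times the background (chosen after the data were seen), and ranged from -38.5 to 6 without 1 library, being 6 without untreated replicate 2 and 4 without TWEAK replicate 2. For NAMPT alone it ranged from -2.5 to 2.5 without 1 library and was 3.5 with pileups of at least 5 times the background (exact p = 0.333).

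Gained and lost sites depended on the setting by construction, since fewer lists, a shorter distance or stronger peaks change which sites qualify. Within 50 kb there were 10 gained and 11 lost member sites, 1 gained and 1 lost NAMPT site, and 21 gained and 29 lost sites of the pathway list. With values of at least 5, 1 NAMPT site was lost. With pileups of at least 5 times the background, 25 member sites were gained and 8 lost, 2 NAMPT sites were gained and 1 lost, and 37 pathway sites were gained and 20 lost, while 5.9% of all sites were gained and 2.33% lost under that threshold (members 7.06% and 2.26%, pathway 4.17% and 2.25%). With no TWEAK peak within 500 bp, 9 member sites were lost. Above the 50th percentile, 6 member sites were gained and 0 lost, and 0 NAMPT sites were lost. Without 1 library the ranges were 31 to 61 gained and 25 to 82 lost for the members, 3 to 9 gained and 3 to 9 lost for NAMPT (9 gained without TWEAK replicate 2, 6 lost without untreated replicate 1 and 9 without untreated replicate 2), and 69 to 129 gained and 75 to 211 lost for the pathway list.

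Calls of shared member sites were 16 higher and 18 lower on the centred pileup, 17 higher with ranks among shared sites only, and 0 and 0 without the trend. Without 1 library they ranged from 6 to 12 higher and from 2 to 17 lower, the 17 arising without TWEAK replicate 1 (7.49%, beside 8.95% of all shared sites) and the 2 without untreated replicate 2 (0.87%, beside 1.44%). The cause was not tested. Of the 16 called sites none changed direction in any alternative, and 8 stayed below 0.05 in every alternative that kept the trend and in which they remained 1 site, the NAMPT first-exon site being separated at 200 bp.

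The NAMPT promoter difference ranged from -0.0583 to -0.00118 without 1 library, was -17.8 on the deposited value relative to the list median (exact p = 0.333), where all 10 members were lower, and as enrichment turned to 10.2. The median over members, -0.490 on ranks, turned to 3.09 as enrichment and ranged from -0.808 to -0.130 without 1 library. As enrichment NMNAT1 (6.15), NMNAT2 (2.89) and NNMT (3.28) turned too, as did NMNAT3 (-4.99) and QPRT (-3.08) on the value relative to the list median and NMNAT2 (0.422) within 2 kb. Without 1 library the NMNAT1 difference ranged from -0.905 to 0.516, with 0.236 without untreated replicate 1, NMNAT2 from -3.55 to 0.667, NNMT from -3.01 to 0.556 and QPRT from -0.437 to 1.48. Over whole merged sites, AP-1 was in 12.4% and NF-kB in 16.6% of member sites, beside 15.1% of all sites for either.

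The replicate numbers were taken as unpaired, since deviations of same-numbered libraries correlated at -0.00606 over 131751 shared sites. With the replicate block, 9 shared member sites were called higher and 6 lower, and 2 named sites lost their call, at adjusted p = 0.0673 (NMNAT3 intron) and 0.0690 (NAPRT window). The site-count difference of -16.5 then had an exact p of 1 and the NAMPT promoter an exact p of 0.5, the smallest that the block allows.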

Other observations

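The following genes of NAD metabolism were chosen after their values were seen. Over all sites, 3.6% were gained and 3.79% lost, and 0.591% and 0.21% were gained or lost above the 50th percentile of both lists. TDO2, a tryptophan dioxygenase that starts the kynurenine route, had no promoter peak in untreated replicate 1, a promoter peak at a percentile of 3.28 in untreated replicate 2, and promoter peaks at 50.3 and 40.5 in the TWEAK libraries. Both TWEAK values were higher than the untreated one. Its 24 sites included 2 gained sites and no lost site. NNT, the mitochondrial transhydrogenase, had 3 gained sites among 19, of which 1 was above the 50th percentile of both TWEAK lists, and none was lost. KMO, the kynurenine hydroxylase, had 2 gained sites among 36, both above the 50th percentile of both TWEAK lists, and none was lost. ACMSD, which diverts the route away from NAD, had 2 lost sites among 11, of which 1 was above the 50th percentile of both untreated lists. IDO1, IDO2 and CD38 had no promoter peak in any list.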
